A study of Homo sapiens with 4 samples.

Results

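The genes described here encode the oxidative phosphorylation machinery, and were chosen by symbol: names beginning with NDUF, UQCR, ATP5, SDHA to SDHD, or COX followed by a digit. In the deposited table of skipped exons, 537 events carried such a symbol, and the 473 with a mean of at least 20 junction reads over the 4 libraries are the members. A junction read spans a splice junction, and an event is a middle exon that is either included or skipped between neighbouring exons of a gene. The members lay in 323 exons of 92 gene symbols (95 gene identifiers) and made up 0.868% of the 54503 events with that depth, out of 65601 in the table. The name rule reaches beyond the enzyme subunits. Subunits of the 5 complexes gave 383 events in 68 symbols, assembly factors named NDUFAF or COX gave 67 events in 16 symbols, and 8 other symbols gave 23 events. These other symbols include the pseudogenes SDHAP1 and SDHAP2, the antisense RNA gene NDUFA6-AS1 and readthrough genes such as NDUFC2-KCTD14. ATP5S, ATP5SL and SDHAF2 are also counted there. The choice used names and depth and no difference between conditions. At the depth limit, SDHAP1 and NDUFAF5 had events with a mean of 19.75 reads just outside it, and NDUFV1, NDUFB2 and UQCRC2 had events with 20.25, 20.5 and 20.75 reads just inside.

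The cells were HEK293T, an established human embryonic kidney line that takes up transfected nucleic acid well. Per the labels, 2 libraries came from cells transfected with 70 nM of a MOE gapmer antisense oligonucleotide (ASO) against SNORD89, and 2 came from cells labelled as untreated, with RNA taken at 48 hours. A gapmer directs cleavage of the RNA it pairs with by RNase H, and SNORD89 is a C/D box small nucleolar RNA. The labels of the untreated cells repeat the transfection text, which leaves unclear whether lipid reagent was added to them, and no control oligonucleotide is named. Both groups are the same line, and the labels call the libraries of each group biological replicates. The table compares a first set of 2 libraries with a second set of 2, and no header or label says which set is the treated one. Its title names SNORD89 first, but directions below are first set against second set only.

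Oxidative phosphorylation takes electrons from NADH and succinate through complexes I to IV of the inner mitochondrial membrane. Complexes I, III and IV pump protons, and complex V uses the proton gradient to make ATP. Complex I (NDUF genes) oxidizes NADH at its N module and passes electrons through its Q module to ubiquinone. Complex II is succinate dehydrogenase (SDH), complex III is the cytochrome bc1 complex (UQCR), complex IV is cytochrome c oxidase (COX) and complex V is ATP synthase (ATP5). All but a few core subunits of complexes I, III, IV and V, which the mitochondrial genome encodes, are made from nuclear genes whose transcripts are spliced. Assembly factors such as the NDUFAF proteins, COX16 and COX17 help build the complexes without being part of the finished enzyme.

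Summed over all events, the libraries held 38613055 to 43929373 junction reads, of which the members took 2.44% to 3.08%. Library 2 of the second set stood apart in the members with a mean inclusion level between 0.05 and 0.95, called alternative here. Of these 73 events, 35.6% to 43.8% differed by over 0.1 in inclusion level in the 3 library pairs that contained it, and 21.9% to 24.7% in the 3 pairs without it. Over all tested alternative events these shares were 43.5% to 45.2% and 25.8% to 31.0%, so the library stood apart beyond the members. Called exons are given with and without it. The inclusion level is the share of junction reads that support inclusion, after each form is divided by its effective length. Intervals of single libraries are 95% Wilson intervals and, like the limits given for a count of 0, cover counting error only.

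Splicing of the oxidative phosphorylation genes differed little between the sets. Most member exons were included nearly always: 331 events (70.0%) had a mean inclusion level above 0.95, against 66.1% of all events tested. Another 69 were included under 0.05, and the 73 alternative events fell in 64 exons of 36 genes. The alternative share was 15.4%, against 24.5% of all events tested. The median absolute difference between the sets was 0.00237 in inclusion level, against 0.0114 for all events tested. Among alternative events alone the medians lay closer together, at 0.0442 for the members against 0.0548 for all those tested. Depth differed as well, since the median member had 1323 junction reads per library and the median tested event 190.

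An event was called at an FDR (false discovery rate) under 0.05 and an absolute difference of at least 0.1 in the authors' deposited table. The call took in 7 of 473 members (1.48%), against a background of 2.71% over all tested events. Of the 7, 3 had a higher inclusion level in the first set, against a background of 1.34%, and 4 a lower one, against 1.37%. Among the alternative members the call took in 7 of 73 (9.59%), and the background for alternative events is 11.1%. A p-value under 0.05 stood beside 45 members (9.51%) in the authors' deposited table, against 14.3% of all events, and an FDR under 0.05 beside 18 (3.81%), against 5.72%. In 100 members (21.1%, against 22.8%) the inclusion levels of one set lay wholly outside those of the other, as they did in 26 of the 73 alternative ones (35.6%, against 33.4%). These shares lie near or under their backgrounds.

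No called member was matched to a coding exon of an enzyme subunit. Of the 383 subunit events, 227 matched a coding or partly coding exon of a GENCODE release 29 transcript, in 192 exons. The transcripts matched include some that GENCODE classes as nonsense-mediated decay and not as protein-coding. Of these 227, 0 were called from the authors' deposited table, against 2.71% of all tested events. An FDR under 0.05 stood beside 3 there, against 5.72%, and a p-value under 0.05 beside 8, against 14.3%. Only members were matched to transcripts, so these backgrounds take in exons of every kind. The quasi-binomial test described below, which has little power with 2 libraries a set, called 0 of all members. The largest absolute difference in inclusion level among the 227 was 0.0983, in NDUFB5. Calls fell in 2 of 383 subunit events, 2 of 67 assembly factor events and 3 of 23 events of other symbols, with median depths of 1789.5, 157.5 and 116.75 reads. None fell in complex II, III or IV subunits, in the N or Q module of complex I, or among the complex IV assembly factors. All 7 called events had mean depths between 23.25 and 106.5 reads, and 6 of them under 100. The 269 members with at least 1000 reads held 0 called events in the authors' deposited table, and their largest absolute difference was 0.0232, in COX16. Of these 269, 219 had a mean inclusion level above 0.95, which leaves little room for a difference of 0.1. The share called over all tested events of that depth is not given, so the 0 is not read as a result about deep members. The plot of difference against depth shows the called events and their depths.

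**Figure D1:**
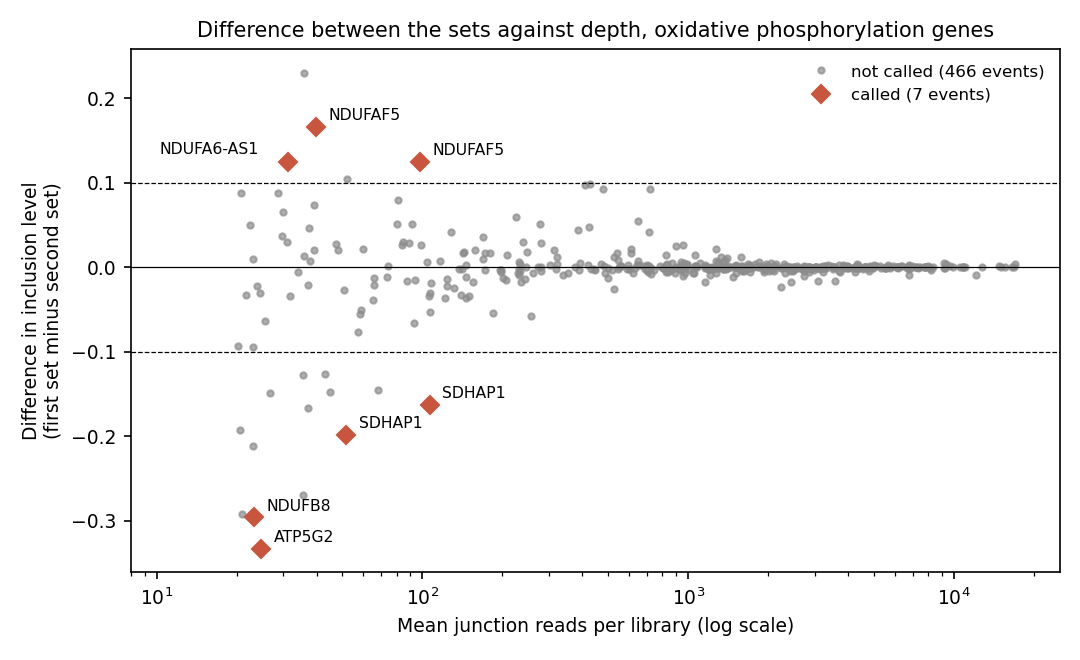
Difference in inclusion level (first set minus second set, vertical axis) against mean junction reads per library (horizontal axis, log scale) for each of the 473 member events. Diamonds are the 7 called events, circles the other 466, and dashed lines mark 0.1 and -0.1. The points narrow towards 0 as depth grows, and the called events lie between 23.25 and 106.5 reads.

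NDUFAF5, an assembly factor that modifies the complex I subunit NDUFS7, held 2 called exons that are coding in 1 of its transcripts. Both are on the plus strand of chromosome 20 (hg19), a 48 nt exon at 13773826 to 13773873 and a 104 nt exon at 13775484 to 13775587, exons 4 and 5 of the 11 of transcript NDUFAF5-202 in GENCODE release 29. That match was made through deeper, uncalled events of the same exons. The called event of the 48 nt exon itself matched a non-coding transcript, NDUFAF5-206, and that of the 104 nt exon matched none. The sequences, from NDUFAF5-202, are shown because these exons were called, with the exon in capitals and up to 15 bases of the neighbouring exons in lower case, 5′ to 3′.
NDUFAF5 exon 4: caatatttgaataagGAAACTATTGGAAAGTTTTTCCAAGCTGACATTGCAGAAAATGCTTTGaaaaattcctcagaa
NDUFAF5 exon 5: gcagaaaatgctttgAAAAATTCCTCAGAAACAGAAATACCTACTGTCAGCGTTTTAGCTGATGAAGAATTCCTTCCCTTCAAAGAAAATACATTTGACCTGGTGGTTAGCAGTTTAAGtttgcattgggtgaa
The 48 nt exon keeps the reading frame when skipped alone, and the 104 nt exon does not, since its length is not a multiple of 3.

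In the called event of the 48 nt exon of NDUFAF5, the inclusion level was 1 and 0.930 in the first set, against 0.916 and 0.682 in the second, from 30, 37, 46 and 46 reads. The 104 nt exon was included at 1 and 0.969 in the first set, against 0.956 and 0.764 in the second, from 92, 109, 113 and 78 reads. In both, library 2 of the second set is lowest and the other libraries lie close together, although the sets do not overlap. The authors' deposited table gives the 48 nt exon of NDUFAF5 a difference of 0.166 at an FDR of 0.0219, and the 104 nt exon a difference of 0.124 at an FDR of 0.00500. Both events of NDUFAF5 count the same skipping junction, which passes over both exons, with 0, 2, 3 and 12 skipping reads in the 4 libraries, so they are not independent. Without library 2 of the second set the differences of NDUFAF5 were 0.0493 and 0.0289. Deeper events of the same exons with nearer neighbours were not called. The 48 nt exon then had levels of 0.988 and 0.954 against 0.987 and 1, a difference of -0.0227. The 104 nt exon had 0.854 and 0.932 against 0.857 and 0.809, a difference of 0.06 at an FDR of 0.282 listed in the authors' deposited table.

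ATP5G2 (ATP5MC2 in current naming) is one of the genes for ATP synthase subunit c, which forms the ring that carries protons. Its called exon of 117 nt, on the minus strand of chromosome 12 at 54067480 to 54067596 (hg19), is exon 2 of the 6 of ATP5MC2-208 and non-coding there. The inclusion level was 0 in both libraries of the first set, against 0.0674 and 0.599 in the second. These came from 17 and 25 reads, then 35 and 22, and 0 inclusion reads of 17 and 25 allow levels of up to 0.107 and 0.0710. Library 2 of the second set alone is high, with an interval of 0.376 to 0.787, while library 1 of the second set lies near the first set. The authors' deposited table gives ATP5G2 a difference of -0.333 at an FDR of 0.00151. Without library 2 of the second set the difference of ATP5G2 was -0.0674.

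The called event listed under NDUFB8, an accessory subunit of the complex I membrane arm, joins that gene to its neighbour. The 196 nt exon at 102269073 to 102269268 on the minus strand of chromosome 10 (hg19) is also an exon of SEC31B in the table, and an exon of NDUFB8 at 102286156 to 102286311 is its neighbour, 16887 bases away. The event stands under the identifier ENSG00000255339.2, which GENCODE release 29 lists as a locus overlapping NDUFB8 with another name, and not under NDUFB8's own identifier, ENSG00000166136.11. Inclusion was 0.622 and 0.786 in the first set, against 1 in both libraries of the second, from 30, 25, 28 and 10 reads. The sets do not overlap, but 0 skipping reads of 28 and of 10 allow inclusion levels as low as 0.806 and 0.538. The authors' deposited table gives NDUFB8 a difference of -0.296 at an FDR of 8.43e-04, and without library 2 of the second set the difference was -0.296 as well. The event of the same exon listed under SEC31B with most reads had levels of 0.639 and 0.432 against 0.682 and 0.2, and the authors' deposited table lists an FDR of 1.

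The other 3 called events were in symbols that are no enzyme subunits. SDHAP1 is a transcribed pseudogene of SDHA, the catalytic subunit of complex II, so reads may be split between near-identical copies and its values are uncertain. Its 122 nt exon, at 195690171 to 195690292 on chromosome 3 (hg19, minus strand), had inclusion levels of 0.762 and 0.763 in the first set, against 0.897 and 0.954 in the second. The 86 nt exon of SDHAP1, at 195713390 to 195713475, had 0.660 and 0.832 against 0.923 and 0.965. Both libraries of the second set were the higher ones in each exon of SDHAP1. The authors' deposited table gives differences of -0.163 and -0.198 with FDRs of 0.00534 and 0.00881 for SDHAP1. Without library 2 of the second set these differences were -0.135 and -0.177. NDUFA6-AS1, a non-coding RNA gene opposite NDUFA6, had a 114 nt exon at 42488123 to 42488236 on chromosome 22 (hg19, plus strand) with levels of 0.0164 and 0.232 against 0 and 0. Library 2 of the first set alone was high in NDUFA6-AS1, and library 1 of the second set held only 7 reads, which allow a level of up to 0.298. The authors' deposited table gives NDUFA6-AS1 a difference of 0.124 at an FDR of 0.0121, and without library 2 of the first set the difference was 0.0164. Without library 2 of the second set it was 0.124. Whether the counting used strand is not given in the sources used here, so reads of an antisense gene and its partner cannot be told apart.

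**Figure D2:**
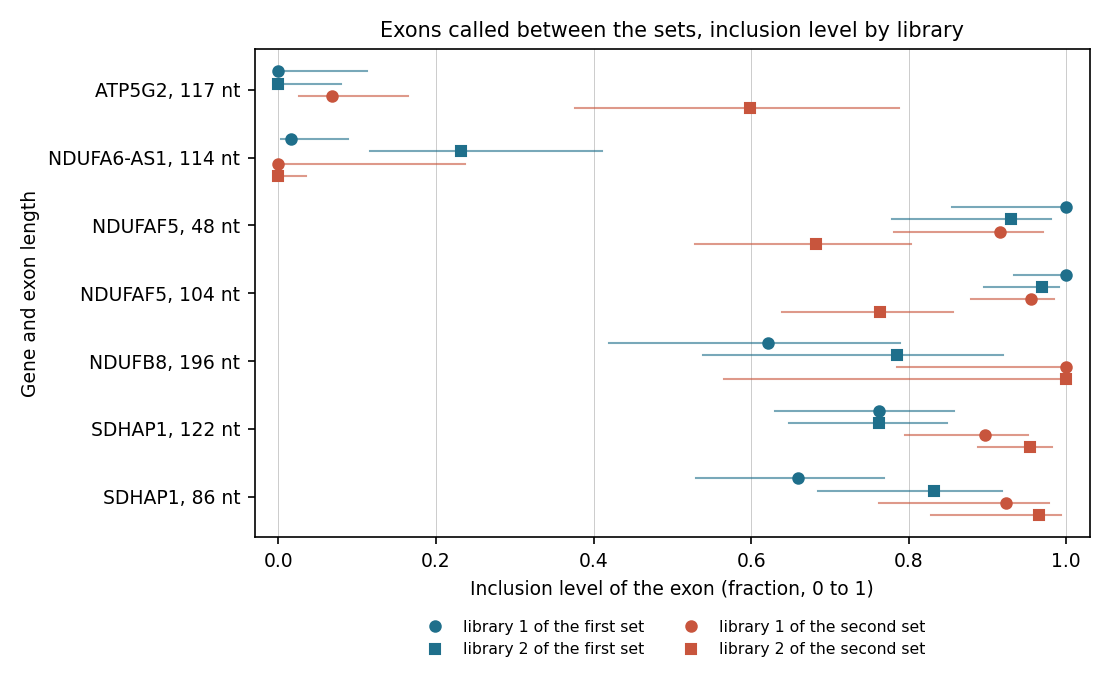
Inclusion level (fraction, horizontal axis) of the 7 called exons in each library, with circles for library 1 and squares for library 2 of each set, and 95% Wilson intervals as lines. Library 2 of the second set lies apart from the other 3 libraries in ATP5G2 and in both NDUFAF5 exons, where it reads 0.599, 0.682 and 0.764.

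Tests whose error is the scatter between libraries of a set gave few or no members. A quasi-binomial model of inclusion against skipping reads, with its dispersion moderated by limma and Benjamini-Hochberg adjustment over all 54503 events, gave 0 members an adjusted p under 0.05, against a background of 0.00183%. The smallest adjusted p among the members was 0.865. This 0 says nothing about whether members differ, because the model found none of the changes put into simulated data once scatter between libraries was added. Unadjusted, 14 members (2.96%) had a p under 0.05, against 2.93% of all events. limma on the log2 ratio of the reads likewise called 0 members, with a smallest adjusted p of 0.955 among them. The share it called over all events is not given here, so this 0 is not read as a result about the members. With precision weights from the reads, limma called 4 members (0.846%), against 0.657%. The 4 were 2 exons of NDUFB5 and 1 each of NDUFA3 and ATP5SL. An exact permutation test of 2 libraries against 2 cannot give a two-sided p below 0.333, so none is given for single exons.

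NDUFB5, an accessory subunit of the complex I membrane arm, had the largest difference among subunit exons matched to coding sequence. It was singled out after its values were seen. Its 67 nt exon on the plus strand of chromosome 3, at 179333771 to 179333837 (hg19), is exon 2 of the 5 of NDUFB5-203. GENCODE classes that transcript as nonsense-mediated decay and not as protein-coding. The exon is shown with up to 15 flanking bases in lower case because it is the subunit exon that came nearest to a call.
NDUFB5 exon 2: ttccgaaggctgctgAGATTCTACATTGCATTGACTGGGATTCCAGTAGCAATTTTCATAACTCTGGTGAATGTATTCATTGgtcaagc
It was included at 0.392 and 0.420 in the first set, against 0.330 and 0.285 in the second, from 325, 430, 459 and 491 reads. Both libraries of the first set were above both of the second. The authors' deposited table gives this exon of NDUFB5 a difference of 0.099 at an FDR of 0.0349, just under the difference of 0.1 asked of a call. The adjusted p of NDUFB5 was 0.0415 by limma with precision weights and 0.865 by the quasi-binomial model. Another 67 nt event of NDUFB5, with a mean of 238.75 reads, had a smaller difference of 0.0291. The authors' deposited table lists an FDR of 0.450 for it. An exon of 89 nt of NDUFB5, at 179332759 to 179332847, had 0.604 and 0.609 against 0.581 and 0.448, with an adjusted p of 0.0352 by the weighted limma fit. In that exon library 2 of the second set was low and library 1 was near the first set. The 89 nt event and the 67 nt event that came nearest to a call count the same skipping reads, 168, 210, 268 and 311 in the 4 libraries. These 2 events of NDUFB5 are therefore not independent.

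NDUFA3, another accessory subunit of complex I, had a 168 nt exon that was skipped rarely in all libraries. Its level was 0.968 and 0.979 in the first set, against 0.988 and 0.994 in the second, from 2273, 2794, 4048 and 3248 reads. The authors' deposited table gives NDUFA3 a difference of -0.017 at an FDR of 0.00115, and the weighted limma fit an adjusted p of 0.0278. ATP5SL (DMAC2 in current naming), a factor for assembly of the distal membrane arm of complex I, had a 163 nt coding exon at 0.375 and 0.279 against 0.275 and 0.195. The first set was higher in the ATP5SL exon, and its lower library lay only just above the higher one of the second set. The authors' deposited table gives ATP5SL a difference of 0.092 at an FDR of 0.0658, and the weighted limma fit an adjusted p of 0.00885. NDUFV1, the flavin-binding subunit that accepts electrons from NADH, had a 167 nt exon at 0.990 and 0.998 against 0.993 and 0.953, where library 2 of the second set was the low one. Its difference in the authors' deposited table was 0.021, with an FDR of 0.00566. NDUFAF7, an assembly factor of complex I, had a 161 nt coding exon at 0.932 and 0.960 against 1 and 1, for which the authors' deposited table lists a difference of -0.054 at an FDR of 0.0167.

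The alternative exons with most reads held nearly the same level in all libraries. ATP5C1 (ATP5F1C in current naming) encodes the gamma subunit, the rotating stalk of ATP synthase, and its alternative exon is known to be left out in heart and skeletal muscle. This 37 nt exon, at 7848937 to 7848973 on the plus strand of chromosome 10 (hg19), was included at 0.914 and 0.923 in the first set, against 0.917 and 0.926 in the second, from 2500 to 4575 reads. The sets overlap, and the difference was -0.00287. NDUFV3 encodes a small subunit of the N module, and inclusion of its long alternative exon gives a larger form of the protein. This 1095 nt exon, at 44323292 to 44324386 on chromosome 21 (hg19, plus strand), was included at 0.204 and 0.198 against 0.187 and 0.193. Both libraries of the first set were above both of the second, by a difference of 0.0111, and the authors' deposited table lists an FDR of 1.

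Of the other deep alternative exons with a length that is a multiple of 3, 2 are shown as sequence, with flanking bases in lower case. They lie in NDUFB6, an accessory subunit of complex I, and in COX16, which helps assemble cytochrome c oxidase. The 117 nt exon of ATP5J2 and the 102 nt exon of SDHC, described below, also have such a length and are not shown.
NDUFB6 exon 3: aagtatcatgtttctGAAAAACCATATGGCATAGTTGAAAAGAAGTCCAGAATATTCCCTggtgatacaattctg
COX16 exon 2: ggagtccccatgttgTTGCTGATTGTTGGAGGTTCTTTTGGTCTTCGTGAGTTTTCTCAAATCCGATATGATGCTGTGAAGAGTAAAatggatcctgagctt
ATP5J2 (ATP5MF in current naming) encodes the f subunit of the membrane part of ATP synthase. Its 117 nt exon (minus strand of chromosome 7, 99056770 to 99056886, hg19) had levels of 0.905 and 0.893 against 0.889 and 0.928, from 9183 to 16243 reads. The 45 nt exon of NDUFB6 (minus strand of chromosome 9, 32558908 to 32558952) had 0.910 and 0.914 against 0.915 and 0.915. The 72 nt exon of COX16 (minus strand of chromosome 14, 70809375 to 70809446) had 0.887 and 0.898 against 0.908 and 0.923. The libraries of ATP5J2 overlap between the sets, while both libraries of the second set were higher in COX16. For COX16 the authors' deposited table lists a difference of -0.023 at an FDR of 0.288.

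SDHC, a membrane anchor of complex II, had 2 deep alternative exons. Its 102 nt exon had levels of 0.933 and 0.918 against 0.936 and 0.95, and its 164 nt exon 0.882 and 0.906 against 0.912 and 0.881. The larger difference of SDHC was -0.0176, in the 102 nt exon, and the authors' deposited table lists an FDR of 0.309. NDUFA8, an accessory subunit of complex I, had a 164 nt exon at 0.909 and 0.905 against 0.903 and 0.944, and NDUFA12, an accessory subunit near the N module, an 88 nt exon at 0.915 and 0.944 against 0.928 and 0.933. ATP5J (ATP5PF in current naming), coupling factor 6 of ATP synthase, had a 43 nt non-coding exon at 0.0872 and 0.0971 against 0.0804 and 0.103. In NDUFA8, NDUFA12 and ATP5J the sets overlapped.

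**Figure D3:**
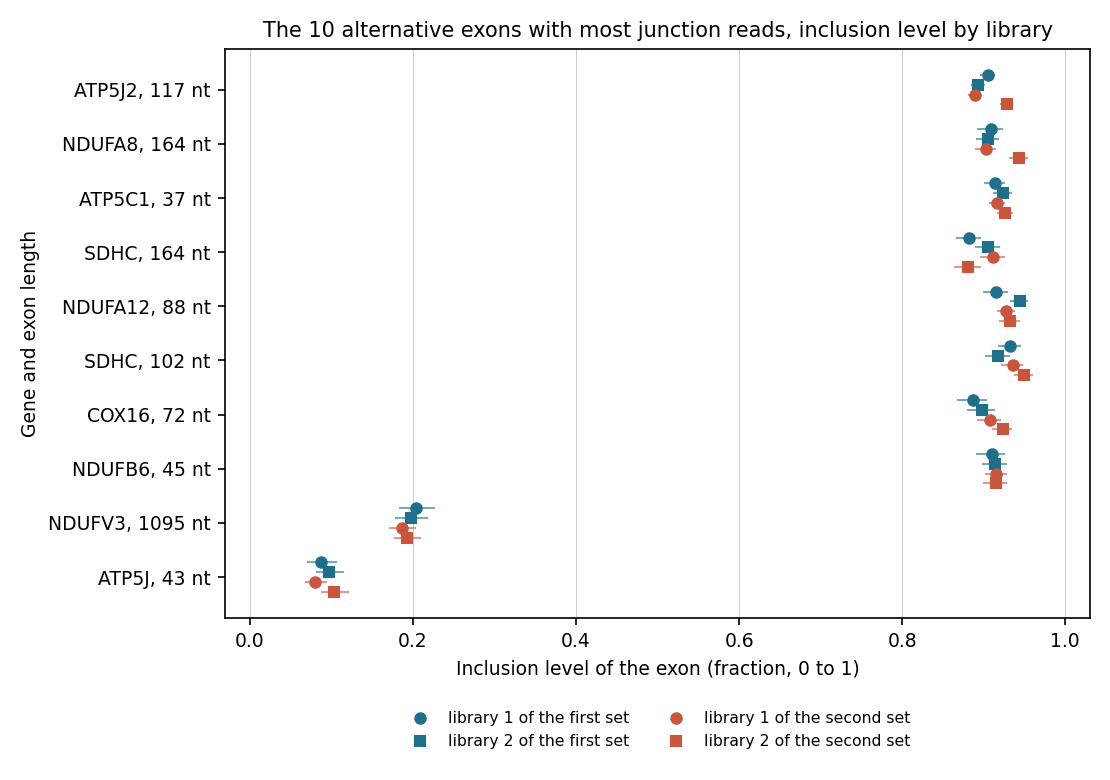
Inclusion level (fraction, horizontal axis) in each library for the 10 alternative exons with most junction reads, with circles for library 1, squares for library 2 and 95% Wilson intervals as lines. The 4 libraries of each exon lie close together, as in NDUFB6 at 0.910 to 0.915, and NDUFV3 and ATP5J are included rarely.

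Shallow exons gave larger differences that were not called. NDUFS8, an iron-sulfur subunit of the Q module, had a 161 nt exon at 0.545 and 0.333 against 0.808 and 0.610, from 28 to 47 reads. ATP5L (ATP5MG in current naming), the g subunit of ATP synthase, had a 62 nt exon at 0.750 and 0.721 against 0.564 and 0.448, from 21 to 51 reads. The sets did not overlap in either exon, and the authors' deposited table gives FDRs of 0.146 for NDUFS8 and 0.133 for ATP5L. ATP5S, known as coupling factor B, had a 36 nt exon at 0.423 and 0.596 against 0.754 and 0.689, and the authors' deposited table lists an FDR of 0.324. A 35 nt exon of ATP5C1 had 0.748 and 0.797 against 0.904 and 0.896, and the authors' deposited table lists an FDR of 0.299. The events with most reads on the same exon of ATP5L, NDUFS8 and ATP5C1 differed by -9.50e-04, 0.00154 and -0.0110. Another event of the ATP5L exon, with a mean of 128 reads, differed by 0.0418, in the direction of the shallow one, and its sets overlapped.

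Skipping a coding exon keeps the reading frame where its length is a multiple of 3. Of the 64 alternative member exons 18 (28.1%) were multiples of 3, against 43.4% of the 11203 alternative exons tested. Over all 323 member exons the share was 40.2%, against 40.3% of all tested exons. These counts include exons that are non-coding or matched no transcript, so they are not shares of exons that keep a protein's frame. Of the 49 alternative member events matched to a GENCODE release 29 transcript, 38 also had the skipping form annotated, as had 58 of the 245 matched events included above 0.95. These shares come from exon lengths and annotation, which the choice of members did not use, and were not tested.

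Skipping over exons that are included nearly always was rare in both sets. Over the 331 such member events, skipping made up 0.450% and 0.466% of the length-corrected junction reads in the first set, against 0.445% and 0.404% in the second. The same share over all 36034 such events was 0.512% and 0.489% against 0.450% and 0.393%. Exons of complex II subunits had 0.552% and 0.439% against 0.332% and 0.191%, so both libraries of the first set were the higher ones. Those of complex I assembly factors had 1.18% and 1.17% against 0.963% and 0.806%. Complex III subunits had 0.344% and 0.431% against 0.368% and 0.568%, and the N module of complex I 0.667% and 0.703% against 0.654% and 0.753%, with overlapping sets and the larger mean in the second. The shares of the Q module of complex I, 0.335% and 0.321% against 0.328% and 0.342%, overlapped between the sets. A further share took only the deepest event of each exon, whereas the shares above take every event. Over the 323 member exons, rarely included ones among them, skipping took 25.4% and 25.7% against 26.7% and 26.5%. This is a difference of -1.06 percentage points. Over all 43229 exons tested, counted in the same way, skipping took 18.32% and 18.13% against 18.04% and 18.11%.

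Junction reads were lower in the first set for most of the genes under the main scaling. The reads of the deepest event of a gene, inclusion and skipping together, were taken as a measure of its spliced RNA, scaled by the median ratio over genes and tested with limma over 9999 gene identifiers. Of the 95 member identifiers, 63 (66.3%) were lower in the first set at an adjusted p under 0.05, against a background of 15.9%, and 0 were higher, against 17.1%. All reads of the first set lay under those of the second in 74 (77.9%), against 34.3%. The median log2 difference was -0.49, against 0.01 for all genes. These are scaled reads of 1 exon's junctions in bulk RNA, and not a count of the whole gene. A smaller share of cells expressing a gene and less of its RNA per cell cannot be told apart.

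These counts turn on the scaling and on single libraries. With total junction reads as the library size, the median of all genes moved from 0.01 to 0.37 on the log2 scale, 12 member identifiers were lower (background 1.72%) and 7 higher (29.4%). This change shifts every gene by the same amount, so the gap of -0.49 between the members' median and that of all genes is unaltered by construction. Without library 1 of the first set 6 member identifiers were lower, beside 1.19% of all genes, and without library 1 of the second set 30, beside 11.3%. Without library 2 of the first set 66 were lower, beside 12.7%, and without library 2 of the second set 65, beside 13.8%.

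By complex as grouped by gene symbol, 30 of 38 identifiers with an NDUF subunit name were lower in the first set, with a median log2 difference of -0.56. NDUFA4, lower at -0.50, is counted among them by its name alone and not under complex IV. The share that was lower is 15.9% over all genes tested. It is 77.4% among genes outside the name rule with at least 2000 reads and transcripts under 2000 nt. In the N module 6 of 8 were lower, in the Q module 6 of 8 and among the other subunits 18 of 22. NDUFS6, a zinc-binding subunit of the N module, had 307 and 457 scaled reads per 1000000 in the first set, against 802 and 584 in the second. The libraries did not overlap, and the log2 difference of NDUFS6 was -0.87 ± 0.17 (SE, n = 2 against 2) with a limma adjusted p of 5.22e-04. NDUFA7, an accessory subunit near the Q module, stands under 2 overlapping identifiers, which can share reads. They had 135 and 155 against 258 and 249, and 257 and 303 against 489 and 439, with log2 differences of -0.81 and -0.73 and limma adjusted p values of 1.29e-04 and 4.85e-04. NDUFA5 of the Q module had 120 and 112 against 119 and 105, a log2 difference of 0.05. With total junction reads as the library size, NDUFS6 and the identifiers of NDUFA7 were still lower, with log2 differences of -0.51, -0.45 and -0.37 and limma adjusted p values of 0.0139, 0.00906 and 0.0178.

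Complex IV subunits were lower in 8 of 9 identifiers, complex III subunits in 6 of 7 and ATP synthase subunits in 9 of 13. Their median log2 differences were -0.58, -0.53 and -0.47. The share that was lower is 15.9% over all genes tested. Among genes outside the name rule with at least 2000 reads and transcripts under 2000 nt, it is 77.4%, with a median of -0.53. Complex II subunits were lower in 2 of 4, SDHA and SDHB, while SDHC and SDHD had log2 differences of 0.02 and 0.11. Of the core proteins of complex III, UQCRC1 was lower, with a log2 difference of -0.39 and a limma adjusted p of 0.0338, and UQCRC2 had a difference of 0.09. ATP5B, the catalytic beta subunit of ATP synthase, had 1459 and 1557 scaled reads per 1000000 against 1524 and 1293, a log2 difference of 0.10 with a limma adjusted p of 0.673. With total junction reads as the library size, SDHC, SDHD, UQCRC2, ATP5B and NDUFA5 were among the 7 higher ones, and UQCRC1 had a difference of -0.03.

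Among the assembly factors named NDUFAF or COX 7 of 16 were lower, 4 of them of complex IV, against a background of 15.9% over all genes. ATP5SL and SDHAF2, counted with the other symbols, had limma adjusted p values of 0.195 and 0.392. COX17, the copper chaperone of cytochrome c oxidase, had 114 and 143 scaled reads per 1000000 against 229 and 190, a log2 difference of -0.71 with a limma adjusted p of 8.27e-04. COX16 had 140 and 157 against 227 and 256, a log2 difference of -0.70 with a limma adjusted p of 5.78e-04. No member was higher past the test. Of those above 0, NDUFAF7 had the smallest adjusted p, with 20.7 and 16.7 against 14.6 and 11.3, a log2 difference of 0.53 with a limma adjusted p of 0.111, and COX10, which makes heme O for cytochrome c oxidase, a log2 difference of 0.41 with 0.194. SDHAP2, COX18 and ATP5J2-PTCD1, next by adjusted p, had log2 differences of 0.41, 0.29 and 0.17. With total junction reads as the library size, NDUFAF7 and COX10 were higher, with log2 differences of 0.89 and 0.77, COX17 was lower at -0.35, and COX16 at -0.34 had an adjusted p of 0.0510.

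**Figure D4:**
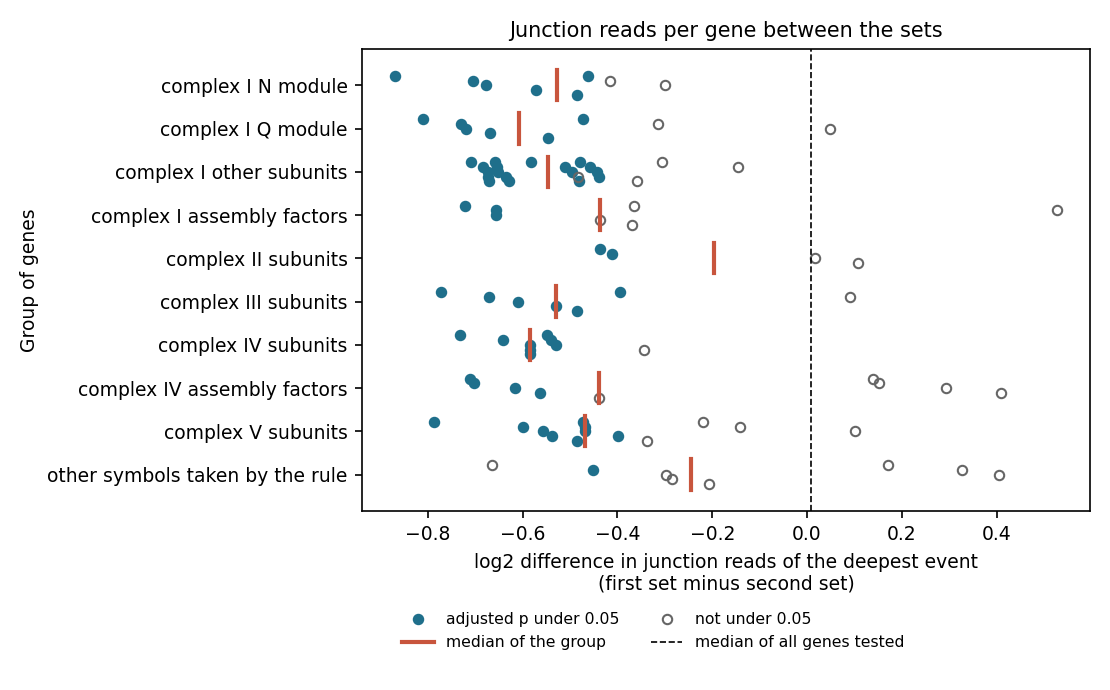
Log2 difference in scaled junction reads (first set minus second set, horizontal axis) for the 95 member gene identifiers by group (vertical axis), 1 point each. Filled points have a limma adjusted p under 0.05, red bars are group medians and the dashed line is the median of all genes tested at 0.01. The subunits of complexes I, III and IV lie mostly left of the dashed line, and with total junction reads as the library size 12 members were lower.

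The difference in reads per gene moved with depth and transcript length over all genes. Among genes outside the name rule, the median log2 difference was 0.47 at a mean of 20 to 100 reads and -0.46 from 2000 reads, and it was -0.53 for transcripts under 1000 nt and 0.38 for those from 4000 nt. Of the 95 member identifiers, 63 had a mean from 2000 reads. In genes with at least 2000 reads and transcripts under 2000 nt, 37 of 43 member identifiers were lower, with a median of -0.54, and 291 of 376 other genes (77.4%), with a median of -0.53. Cytosolic ribosomal protein genes, also short and abundant, were lower in 65 of 73, with a median of -0.64. The part of depth and transcript length in the members' difference was not tested.

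Other genes of the respiratory chain and its assembly, from a list of 49 symbols outside the name rule, had tested events in 38 genes. Of their 272 events, 2 were called from the authors' deposited table (0.735%, beside the background of 2.71%). TMEM126B, an assembly factor of complex I, had a 172 nt exon at 0.464 and 0.385 against 0.354 and 0.267, for which the authors' deposited table lists a difference of 0.114 at an FDR of 0.0284. COA1, an assembly factor of complex IV, had a 101 nt exon at 0.156 and 0.123 against 0.190 and 0.325, with a difference of -0.118 at an FDR of 0.0396 there, and library 2 of the second set was the high one. Of the 38 genes, 16 were lower in reads and 3 higher in the first set, against backgrounds of 15.9% and 17.1%. Their median log2 difference was -0.33. CYC1, the cytochrome c1 subunit of complex III, was among the lower ones at -0.46 with a limma adjusted p of 0.0253, and GPD2, the mitochondrial glycerol phosphate dehydrogenase, among the higher ones at 1.18 with 0.0120.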

How the data were processed

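Libraries of poly(A) RNA were sequenced as 150-base read pairs, per the labels. The submitters' processing notes name cutadapt, STAR and hg19. The deposited table has the rMATS layout, per the file headers, whose version is not given in the sources used here. The authors gave inclusion and skipping junction read counts, paired in 1 cell per set, the difference in inclusion level as a score from -1 to 1, and a p-value with its FDR per event. Recomputed differences lay within 0.00137 of the deposited ones. Because cells hold pairs of counts, limma 3.58.1 (R 4.3.3) replaced the planned negative binomial count test for reads per gene: log2 of scaled reads with 0.5 added, trended variances, Benjamini-Hochberg over all genes. The quasi-binomial prior came from events with at least 5 reads of the rarer form per library, a choice made after seeing the data; tested on simulated data, the model found changes under counting noise alone and none with scatter between libraries added, while the gene fit found most. Named items are the called events, events past the quasi-binomial test, the 10 deepest alternative exons, up to 10 non-overlapping events with a p-value under 0.05, NDUFV3 and ATP5C1 exons, and the 5 gene identifiers with the smallest adjusted p in each direction; NDUFB5, NDUFA3, ATP5SL, NDUFV1, NDUFAF7 and further genes used as contrasts were added after their values were seen. Members and lists were chosen with earlier results of these data known. Exon roles and sequences come from GENCODE release 29 (GRCh38), matched by gene identifier and exon spacing for 350 of 473 events; coordinates are the table's, and none was converted. Alternatives are listed in the closing section.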

Additional observations from a re-analysis of the deposited data

How the results depend on the processing

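The count of 7 calls became 19 with no read minimum, 12 with a mean of at least 10 reads, 3 with at least 50, 14 at a difference of at least 0.05 and 2 at 0.2. Leaving out 1 library kept 4 to 7 of the calls at a difference of at least 0.1, the 4 without library 2 of the second set. The quasi-binomial test gave 0 members, which its low power makes no measure of change, and limma with precision weights 4. With total junction reads as the library size, 12 gene identifiers were lower and 7 higher in the first set, in place of 63 and 0, and leaving out 1 library gave 6 to 66 lower, while the share of all genes that were lower ranged from 1.19% to 13.8%. The called 48 nt exon of NDUFAF5 turned from 0.166 to -0.0227 in its other event. Leaving out 1 library moved the difference in skipping share between -1.24 and -0.883 percentage points. The cause of these changes was not tested. No paired analysis was possible because the libraries inside a set of the table carry no replicate number. DESeq2 was not run, since cells hold pairs of counts. With 2 libraries a set and calls at 106.5 reads or fewer, single shallow exons are held only to the width of their intervals.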
